A study of Mus musculus with 8 samples.

Results

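The 8 genes described here are 7 secreted antagonists of Wnt signalling, Sfrp1, Sfrp2, Frzb, Dkk1, Dkk2, Dkk3 and Wif1, and Kremen1, a membrane receptor for Dkk proteins. They were taken by name, and each was found in both deposited count tables, 8 of the 23478 gene symbols that each table lists. RNA was sequenced from mouse trachea at E13.5, an embryonic stage at which its mesenchyme is forming cartilage and muscle. The first comparison set whole trachea of the genotype Wls flox/flox, ShhCre+ (the Wls mutant, 1 library) against whole trachea of Wls flox/flox embryos (2 libraries). The second set cells of Bmp4flox/flox, Foxg1Cre+, γSMAeGFP trachea (the Bmp4 mutant, 2 libraries) against cells of Bmp4flox/flox, γSMAeGFP trachea (3 libraries). The cells of the second comparison had been sorted as negative for Epcam, an epithelial surface protein, and for the GFP reporter of smooth muscle, and the labels call them chondroblasts. All groups carry floxed alleles and neither control carries a Cre, so a deletion and its Cre allele cannot be told apart. Whether the libraries within a group are from different embryos is not stated in the labels, so the spread behind each p-value may be technical.

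Wnt proteins are lipid-modified ligands that leave the cell with the help of the cargo receptor Wls. They bind Frizzled receptors together with the co-receptors Lrp5 and Lrp6, which stabilises beta-catenin, and through Ror and Ryk receptors they also act without beta-catenin. Secreted inhibitors act at separate steps. Sfrp1, Sfrp2 and Frzb carry a Frizzled-like cysteine-rich domain and, like Wif1 with its WIF domain, bind Wnt ligands outside the cell, whereas Dkk1 and Dkk2 bind Lrp5 and Lrp6, and Kremen1 helps Dkk1 to take Lrp6 off the cell surface. Dkk3 is a divergent Dkk family member that is not known as a strong Lrp6 ligand. Several of these genes, Dkk1 among them, are themselves known targets of Wnt signalling.

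The whole trachea libraries held 24596836 counts in the Wls mutant against 27237573 and 31399982 in the controls, and the sorted-cell libraries 12964287 and 15462780 in the Bmp4 mutants against 48876948 to 55492747 in the controls. Wls stood at 65.3 CPM (counts scaled to the library total) in the Wls mutant trachea against 151 and 149 CPM in its controls, and Bmp4 at 25.5 and 36.7 CPM in the Bmp4 mutant cells against 92.0 to 117 CPM in theirs. The sorted cells held Sox9, which directs cartilage formation, at 171 and 536 CPM in the Bmp4 mutants against 710 to 1800 CPM in the controls. Epcam, one of the 2 sorting marks, stood at 5.71 and 7.76 CPM in the Bmp4 mutants against 0.307 to 2.02 CPM in the controls. The Bmp4 mutant libraries carried an even background of reads over genes that were silent in the controls, 14.6 and 13.3 counts per kilobase of exon against at most 0.0508 in the controls. It came to 10.7% and 8.2% of their counts, and for the length of Epcam to a mean of 2.18 CPM in the mutants. Its share of each gene is given beside the results, since it touches low genes most.

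The stretch before the transcription start is shown here for the gene with the largest fall among those that passed the test (Wif1), the one with the fewest counts and a fall past the size rule (Dkk1) and the most abundant one (Sfrp2). Each is the 250 bases before the start that RefSeq gives (build GRCm38.p6), 5′ to 3′ on the gene's strand. Capitals mark TCF/LEF cores, CTTTGA or CTTTGT on either strand, the letters that the nuclear partners of beta-catenin bind. Dkk1 lies on the minus strand at chr19:30549497-30549746, Wif1 on the plus strand at chr10:121033754-121034003 and Sfrp2 on the plus strand at chr3:83766071-83766320.
Dkk1: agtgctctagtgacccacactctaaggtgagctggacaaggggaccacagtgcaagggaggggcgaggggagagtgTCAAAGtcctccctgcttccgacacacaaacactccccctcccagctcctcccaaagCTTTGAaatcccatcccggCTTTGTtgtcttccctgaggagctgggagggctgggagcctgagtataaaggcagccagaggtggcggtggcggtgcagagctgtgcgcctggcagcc
Wif1: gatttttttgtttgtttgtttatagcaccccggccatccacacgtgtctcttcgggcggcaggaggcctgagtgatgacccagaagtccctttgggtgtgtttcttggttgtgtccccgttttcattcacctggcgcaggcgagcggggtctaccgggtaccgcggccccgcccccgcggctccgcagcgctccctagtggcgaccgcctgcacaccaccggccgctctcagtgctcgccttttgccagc
Sfrp2: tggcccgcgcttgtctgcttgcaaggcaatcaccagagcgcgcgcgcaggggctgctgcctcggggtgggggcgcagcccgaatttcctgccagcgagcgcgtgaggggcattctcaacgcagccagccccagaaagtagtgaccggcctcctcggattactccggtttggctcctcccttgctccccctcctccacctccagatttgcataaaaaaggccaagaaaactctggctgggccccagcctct
Dkk1 held 3 cores, at -174, -117 and -98 counted from the start, and the one at -174 lies on the opposite strand. Frzb held 1 at -95 and Dkk2 1 at -80, whereas Wif1 and Sfrp2 held 0. Windows of 250 bases before to 50 after the start were searched, and 28.8% of 16647 such windows held at least 1 core of either form (14.9% CTTTGA, 17% CTTTGT) and 0.9% held at least 3. GENCODE M21 places the outermost start of Dkk1 169 bases further upstream, that of Wif1 44 and that of Frzb 229 bases further upstream. Part of the Dkk1 and Wif1 stretches is therefore transcribed in that annotation. The Dkk1 cores at -117 and -98 and the Frzb core at -95 lie after those starts and not before them. A match is a run of letters, not a measured binding site.

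In the whole trachea, some of the 8 genes rose and others fell in the Wls mutant. Sfrp1 rose by 0.69 and Sfrp2 by 0.79 on the log2 scale, whereas Wif1 fell by 1.25 and Dkk3 fell by 0.76. Dkk1 was nearly undetected in the mutant, and Frzb, Dkk2 and Kremen1 did not pass the test. In all, 4 of the 8 genes passed the edgeR quasi-likelihood test at a Benjamini-Hochberg adjusted p under 0.05, where 4.27% of the 15815 genes tested did (1.88% higher and 2.39% lower). With 1 mutant library the test had 1 residual degree of freedom and took that library to vary like the controls. A plain size rule was therefore set beside it, a log2 CPM difference of at least 1 from the control mean with the mutant outside the controls. Dkk1 and Wif1 were lower past that rule, as were 2.85% of the genes tested, and none of the 8 was higher past it, against 2.23% of the genes tested. Of the 8 genes, 7 lay outside both controls, Kremen1 being the exception, as did 74.2% of all genes tested, so lying outside says little by itself.

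Sfrp1, whose protein binds Wnts through its Frizzled-like domain, spans chr8:23411502-23449632 (GRCm38, plus strand). It stood at 342 CPM in the Wls mutant against 210 and 217 CPM in the controls. The controls differed by far less than the mutant stood above them, and the log2 fold change was 0.69 ± 0.18 (SE; edgeR adjusted p = 0.0081). Sfrp2, a close relative with the same domain, spans chr3:83766321-83774316 (plus strand). It stood at 579 CPM in the mutant against 386 and 287 CPM in the controls, a log2 fold change of 0.79 ± 0.20 (SE; edgeR adjusted p = 0.0043). Its controls lay apart, so the single-library difference was 0.57 against control 1 alone and 1.07 against control 2 alone, with no test. The antisense gene Gm26771 overlaps 347 exon bases of Sfrp2 and is no row of the tables. The strand setting of the counting is not given in the sources used here, so its reads and those of Sfrp2 cannot be told apart.

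Frzb, known as an inhibitor of Wnt signalling in developing cartilage, spans chr2:80411970-80447625 (minus strand). It stood at 9.47 CPM in the mutant against 8.22 and 7.93 CPM in the controls, just above both, and the log2 fold change of 0.25 ± 0.26 did not pass the test (edgeR adjusted p = 0.77). Wif1, which binds Wnts through its WIF domain, spans chr10:121033960-121100650 (plus strand). It stood at 15.1 CPM in the mutant against 39 and 33.6 CPM in the controls. The mutant lay well below both, with a log2 fold change of -1.25 ± 0.20 (SE; edgeR adjusted p = 6.4e-07), and DESeq2 gave an adjusted p of 4e-04. Of the 8 genes, it had the lowest p-value in the trachea.

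Dkk1, the Lrp6-binding inhibitor, spans chr19:30545863-30549665 (minus strand) and was the least abundant of the 8. The mutant held 3 counts of it against 22 and 20 in the controls, which is 0.122 CPM against 0.808 and 0.637 CPM. The ratio of mutant to control CPM was 0.17, with an exact 95% interval of 0.0338 to 0.533 that covers counting error only. The log2 fold change of -2.50 ± 0.99 did not pass the test (edgeR adjusted p = 0.16), and DESeq2 gave no adjusted p. Dkk2, the other Lrp-binding family member, spans chr3:132085292-132180304 (plus strand). It stood at 17 CPM in the mutant against 21.9 and 24.6 CPM in the controls, below both, with a log2 fold change of -0.44 ± 0.20 that did not pass the test (edgeR adjusted p = 0.28).

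Dkk3, the divergent family member, spans chr7:112116017-112159057 (minus strand). It stood at 15.8 CPM in the mutant against 28.1 and 26 CPM in the controls, which were close to each other. The log2 fold change was -0.76 ± 0.20 (SE; edgeR adjusted p = 0.0095), but DESeq2 did not call it (adjusted p = 0.17). Kremen1, the Dkk receptor, spans chr11:5191552-5261558 (minus strand). It stood at 43.5 CPM in the mutant against 40.5 and 43.7 CPM in the controls, inside their range, with a log2 fold change of 0.06 ± 0.18 (SE; edgeR adjusted p = 0.93).

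**Figure D1:**
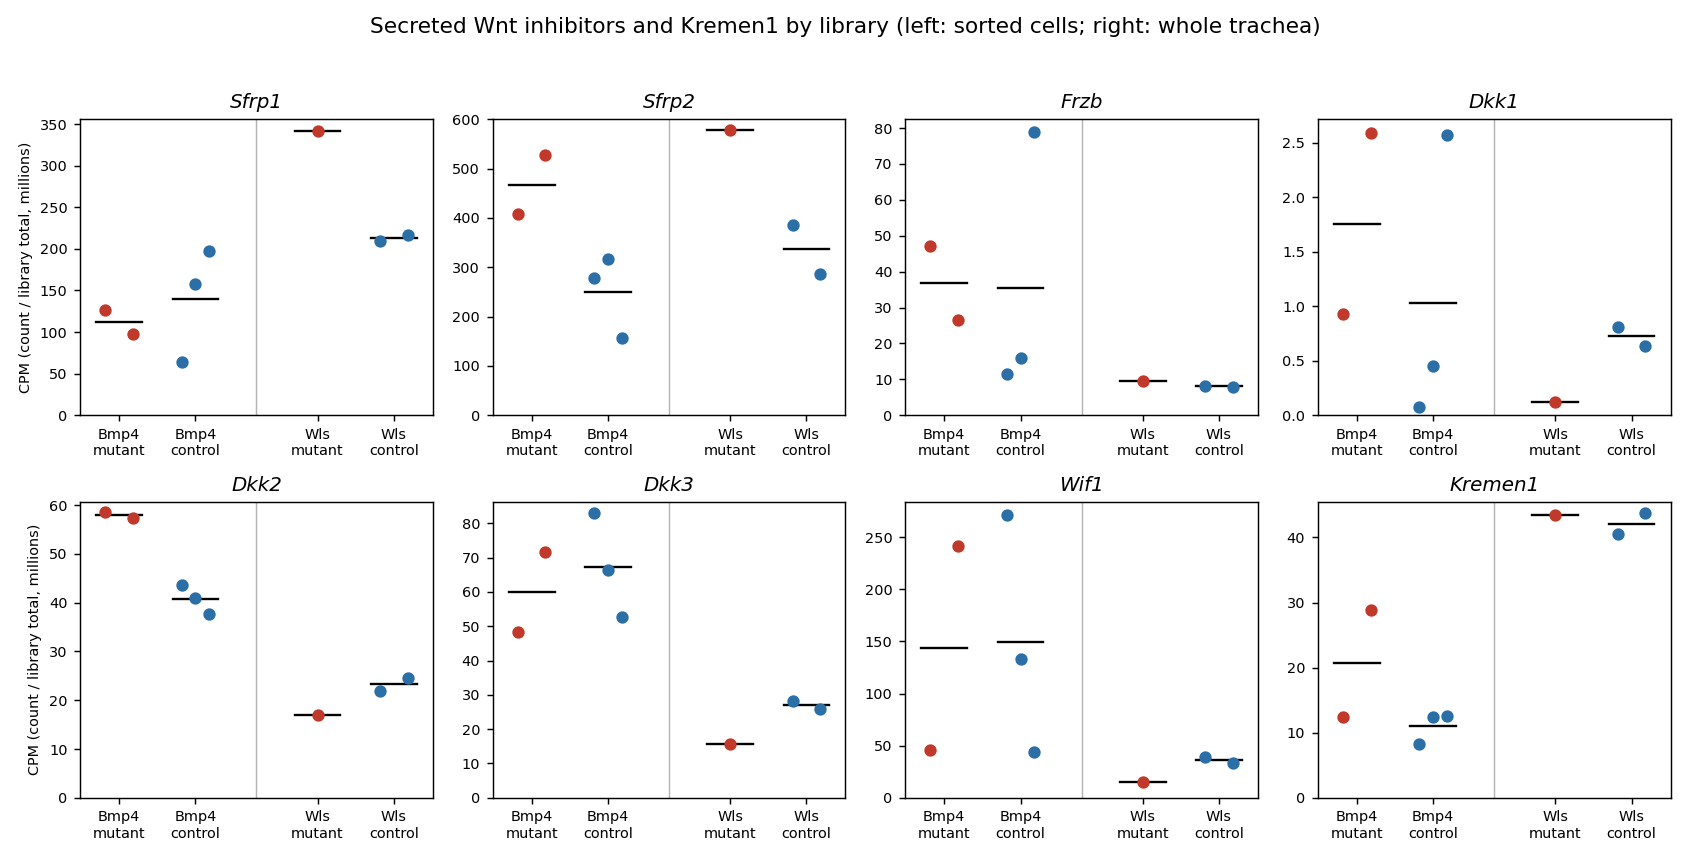
Level of each of the 8 genes in CPM (count over library total, linear axes from 0) by library, with Bmp4 mutant and control sorted cells left of the grey line and Wls mutant and control whole trachea right of it. Points are libraries and bars are group means. In the trachea the Wls mutant lies above both controls for Sfrp1 (342 CPM against 210 and 217) and below both for Wif1 (15.1 CPM against 39 and 33.6), while in the sorted cells the groups overlap for 6 of the 8 genes.

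Markers of several tissues differed between the trachea libraries beside these genes. The 13 cartilage markers in the table summed to 762 CPM in the Wls mutant against 2050 and 1810 CPM in the controls, and 10 of the 12 tested were lower by the edgeR test. Only Matn1 was at 0 in one of the controls. The 9 smooth muscle markers summed to 2820 CPM in the mutant against 2060 and 1800 CPM, with 3 of 9 higher, the 11 epithelial markers to 1060 CPM against 782 and 666 CPM, with 5 higher and 2 lower, and the 8 skeletal muscle markers to 215 CPM against 105 and 95.1 CPM, with 5 higher. None of these was at 0 in any trachea library. In bulk tissue, fewer cells of a type and less RNA per cell cannot be told apart, and the part of these markers in the values of the 8 genes was not tested.

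Levels can be compared between genes only per length, so CPM were divided by the kilobases of exon in GENCODE M21. In the trachea controls the order was Sfrp2 (156 CPM per kilobase), Sfrp1 (48.9), Wif1 (14.9), Dkk3 (8.05), Dkk2 (6.28), Kremen1 (5.45), Frzb (2.5) and Dkk1 (0.298), and no neighbours in it overlapped between the 2 control libraries. In the Wls mutant Sfrp2 (269 CPM per kilobase) and Sfrp1 (78.2) again led. Wif1 (6.23) now stood close to Kremen1 (5.63), Dkk3 (4.71) and Dkk2 (4.59), ahead of Frzb (2.93) and Dkk1 (0.0503). Summed per length, the 8 genes came to 371 CPM per kilobase in the mutant against 266 and 220 in the controls. Sfrp2 alone made up 72.4% of that sum in the mutant against 67.5% and 60.7% in the controls, and Wif1 1.68% against 6.04% and 6.3%. The sum of these 8 genes, mostly Sfrp2, was thus larger in the mutant library and held less Wif1, with 1 mutant library and no test. It does not stand for all Wnt inhibitors.

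**Figure D2:**
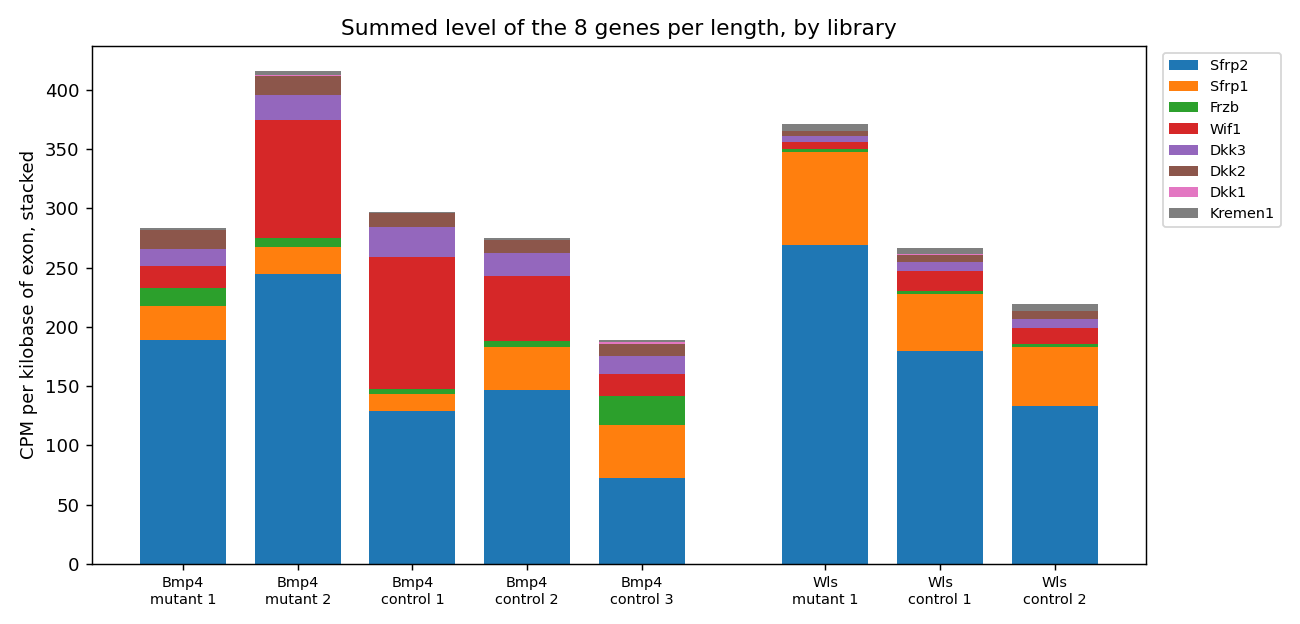
Stacked level of the 8 genes in CPM per kilobase of exon (linear axis from 0), one bar for each library, Bmp4 mutant and control sorted cells on the left and Wls mutant and control trachea on the right. Sfrp2 is the largest part in every library, and the Wif1 part spans 6.71% to 37.7% of the bar over the sorted-cell libraries but 1.68% in the Wls mutant trachea.

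In the sorted cells, none of the 8 genes passed the edgeR test between Bmp4 mutants and controls, where 54.9% of the 21665 genes tested did (8507 higher and 3381 lower, but 9786 higher and 858 lower with scaling factors taken only from genes well above the background). The unadjusted p of each was also above 0.05, and DESeq2 called Sfrp2 alone (log2 fold change 0.70, adjusted p = 0.049). Median log2 fold changes were 0.08 for the 8 genes and 0.53 for all genes tested, against -0.37 for genes well above the background. The scale thus depends on the genes it is taken from. Genes well above the background were picked by their mean over all sorted-cell libraries, most of them controls. Genes higher only in the mutants therefore entered that set less easily, which bears on its median. Sfrp2 and Dkk2 were higher in both mutants than in all 3 controls, as were 53.3% of the genes tested. Under the scaling from genes well above the background, which moved the median of all genes to 0.90, Sfrp2 and Dkk2 were called and higher. With the background subtracted from the counts, 255 of 9598 genes were called, and none of the 6 inhibitors that could be tested was among them.

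Sfrp1 stood at 126 and 97.3 CPM in the Bmp4 mutants against 64.5, 158 and 198 CPM in the controls. The mutants lay inside the control range, and the log2 fold change of -0.53 ± 0.42 did not pass the test (edgeR adjusted p = 0.31). Without control 1, the lowest control, it passed (-0.87, adjusted p = 0.018). The background was 3.89% and 3.88% of its mutant counts, and with it subtracted the log2 fold change was -0.05. Sfrp2 stood at 407 and 528 CPM in the mutants against 278, 316 and 156 CPM in the controls. The groups did not overlap, but the log2 fold change of 0.66 ± 0.31 missed the threshold (edgeR adjusted p = 0.10). It was 1.03 (adjusted p = 0.019) with scaling from genes above the background, and 1.19 ± 0.31 (adjusted p = 0.091) with the background subtracted. The background was 0.595% and 0.352% of its counts in the mutants.

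Frzb stood at 47.2 and 26.5 CPM in the mutants against 11.5, 16 and 78.9 CPM in the controls. Control 3 stood far above the other controls, and the log2 fold change of -0.13 ± 0.77 (edgeR adjusted p = 0.89) turned to 1.19 (adjusted p = 0.036) without it. The background was 7.71% and 10.6% of its mutant counts. Among the controls the 8 skeletal muscle markers were likewise highest in control 3, summing to 314 and 212 CPM in the mutants against 12.1, 23.7 and 157 CPM in the controls. For their lengths the background alone would give 166 and 127 CPM of the mutant sums, mostly through the long gene Ttn, and 2 of the 8, Myog and Acta1, were above the background limit. Of these markers 3 were at 0 in control 1 and 1 in control 2, and their part in the Frzb values was not tested. Wif1 stood at 46.2 and 241 CPM in the mutants against 271, 133 and 44 CPM in the controls. Libraries of both groups spanned nearly the same range, and the log2 fold change of -0.34 ± 0.82 did not pass the test (edgeR adjusted p = 0.75). It was -1.88 without mutant 2 and 0.44 without control 1, and the background was 5.9% and 0.87% of its mutant counts.

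Wif1 ranked the 3 controls as the summed cartilage markers did, and so did Dkk2 and Dkk3, but an order over 3 libraries says little. The cartilage markers summed to 734 and 1850 CPM in the mutants against 5940, 3680 and 2860 CPM in the controls, with Matn1 at 0 in 2 of the controls. Mutant 2, with a lower cartilage sum than any control, held 241 CPM of Wif1. Smooth muscle markers summed to 1730 and 381 CPM in the mutants against 215 to 233 CPM in the controls, with none at 0, and globin genes made up 12.3% and 0.111% of the mutant counts against 0.000476% to 0.96% in the controls. The 8 fibroblast and perichondrium markers, all above the background limit, summed to 12700 and 15600 CPM in the mutants against 6580 to 9760 CPM in the controls, with 4 of 8 higher by the edgeR test and none at 0. Like Sfrp2 and Dkk2, this sum was above every control in both mutants. So were the sums of the 7 endothelial markers (187 to 223 CPM in the mutants against 24.2 to 108 CPM in the controls), the 8 neural markers (617 to 761 CPM against 303 to 489 CPM), the 6 leukocyte markers (225 to 243 CPM against 118 to 153 CPM) and the 11 epithelial markers (89.5 to 150 CPM against 35.5 to 51.9 CPM). By the edgeR test 2 endothelial and 3 leukocyte markers were higher, 2 neural markers were higher and 1 lower, and 4 of the 10 epithelial markers tested were higher. Of all 21665 genes tested, 8507 were higher and 3381 lower by the same test, and 53.3% lay above every control in both mutants. Such counts and sums therefore say little about these tissues in particular. Of these called markers, 0 endothelial, 0 epithelial and 2 leukocyte ones were above the background limit, as were all the neural ones. For their lengths the background alone would give 40.4 and 31 CPM of the endothelial sums in the mutants. It would give 35.3 and 27.1 CPM of the epithelial sums. Krt5 was at 0 in all 3 controls and Trp63 in 1 of them, and no other marker of these lists was at 0. The mutants thus differed from each other in cartilage, smooth muscle and globin genes. From the controls they differed in markers of several tissues, as in a large share of all genes tested. The part of this in the values of the 8 genes was not tested. The fit without the 10 globin genes called none of the 8.

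Dkk1 held 12 and 40 counts in the mutants against 4, 22 and 128 counts in the controls, that is 0.926 and 2.59 CPM against 0.0721, 0.45 and 2.57 CPM. For its length the background alone would give 35.4 and 32.4 counts in the mutants, 295% and 81% of what was counted. Dkk1 was therefore not detectable above background in mutant 1, and its log2 fold change of 0.55 ± 1.27 (edgeR adjusted p = 0.73) carries no direction. Control 3 alone held most control counts of Dkk1, and without that library the log2 fold change was 2.49. Dkk2 stood at 58.6 and 57.4 CPM in the mutants against 43.7, 41 and 37.6 CPM in the controls, the tightest groups of the 8 genes. The log2 fold change was 0.28 ± 0.16 (edgeR adjusted p = 0.16), with background making up 7.1% and 5.57% of its mutant counts. It was 0.66 (adjusted p = 0.011) with scaling from genes above the background and 0.73 ± 0.16 (adjusted p = 0.069) with the background subtracted.

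Dkk3 stood at 48.4 and 71.7 CPM in the mutants against 82.9, 66.3 and 52.6 CPM in the controls. The groups overlapped, and the log2 fold change of -0.40 ± 0.24 (edgeR adjusted p = 0.19) was 0.04 with the background subtracted, which made up 7.81% and 4.04% of its mutant counts. Kremen1 stood at 12.4 and 28.9 CPM in the mutants against 8.31, 12.4 and 12.6 CPM in the controls. Background would give 113 of its 161 counts in mutant 1 and 103 of its 447 counts in mutant 2, which leaves 3.74 and 22.2 CPM. Only mutant 2 stood above the controls, and the log2 fold change of 0.65 ± 0.38 (edgeR adjusted p = 0.18) was 0 without it. The direction of Kremen1 in the sorted cells therefore rests on 1 library.

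**Figure D3:**
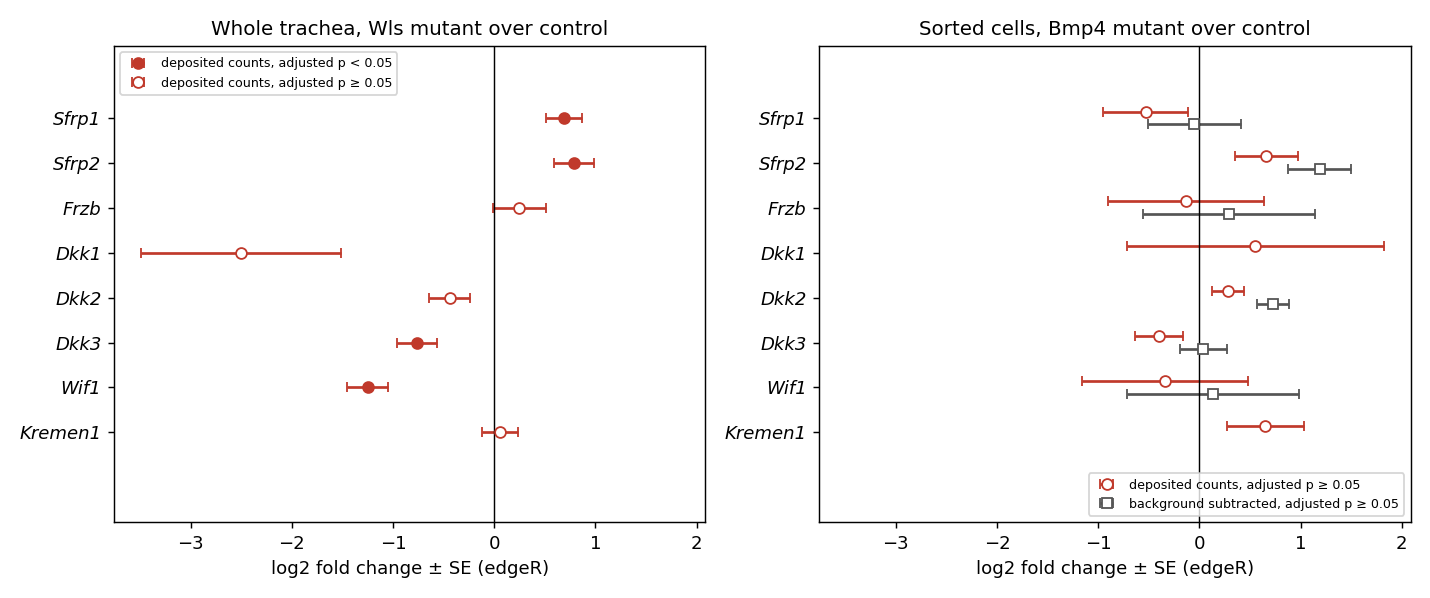
Log2 fold change of each of the 8 genes, mutant over control, with a standard error derived from the F statistic of the edgeR fit. Whole trachea is on the left and sorted cells on the right, with grey squares after subtraction of the background, which left Dkk1 and Kremen1 untested. Filled points passed an adjusted p of 0.05: Sfrp1 (0.69), Sfrp2 (0.79), Dkk3 (-0.76) and Wif1 (-1.25) in the Wls mutant trachea and none in the Bmp4 mutant cells.

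Spread among the sorted-cell controls differed widely between the genes. The highest control was 35.7 times the lowest for Dkk1, 6.84 times for Frzb, 6.16 times for Wif1 and 3.07 times for Sfrp1. The same ratio was 2.03 for Sfrp2, 1.58 for Dkk3, 1.51 for Kremen1 and 1.16 for Dkk2. Control 3 was the highest control for Sfrp1, Frzb, Dkk1 and Kremen1 and the lowest for Sfrp2, Wif1, Dkk2 and Dkk3. Without it the edgeR SE fell for Frzb (0.77 to 0.37), Sfrp2 (0.31 to 0.21), Dkk1 (1.27 to 1.05) and Wif1 (0.82 to 0.68). It changed little for Sfrp1 (0.42 to 0.41), Dkk2 (0.16 to 0.17) and Dkk3 (0.24 to 0.22), and rose for Kremen1 (0.38 to 0.46). For Sfrp1 the SE was 0.24 without control 1. Per length, the mean levels in the Bmp4 mutants were 217 CPM per kilobase for Sfrp2, 59.1 for Wif1, 25.6 for Sfrp1, 17.9 for Dkk3, 15.7 for Dkk2, 11.4 for Frzb, 2.68 for Kremen1 and 0.724 for Dkk1. In the controls they were 116 for Sfrp2, 61.5 for Wif1, 32 for Sfrp1, 20 for Dkk3, 11 for Dkk2 and for Frzb, 1.44 for Kremen1 and 0.425 for Dkk1. Among the controls, only the neighbours Dkk3 and Dkk2, Frzb and Kremen1, and Kremen1 and Dkk1 did not overlap. The order of the means was the same in both groups of sorted cells, and the levels of the last 2 genes include the background in the mutants.

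Genes with the most similar pattern were sought by the root mean square difference of log2 CPM over all 8 libraries, each table centred on its own mean, among genes of at least 5 CPM in both tables. Dkk1 was too low for this. The nearest to Wif1 was Gdf10, a secreted ligand of the TGF-beta family, at 0.153 log2 units where Wif1 itself varied by 0.963. Egfem1 (0.338) and Enpp2 (0.356), which makes the lipid mediator lysophosphatidic acid, came next. Gdf10 stood at 63.8 and 347 CPM in the Bmp4 mutant cells against 476, 217 and 85 CPM in the controls, and at 38.9 CPM in the Wls mutant trachea against 118 and 91.7 CPM. It ranked the trachea libraries as Wif1 did, and the sorted-cell libraries too except for the lowest 2, which changed places.

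Sfrp2 was nearest to the serine protease gene Htra3 (0.106), the collagen VI gene Col6a2 (0.153) and the thrombomodulin gene Thbd (0.16), where Sfrp2 varied by 0.533. Sfrp1, which varied by 0.485, was nearest to Frem2 (0.158), Srf (0.189) and Khdrbs3 (0.194). Frzb, which varied by 0.799, was nearest to Actn2 (0.263), which encodes an alpha-actinin of striated muscle, Maob (0.295) and Fhl3 (0.297). Dkk2 (spread 0.246), Dkk3 (0.318) and Kremen1 (0.465) had their nearest genes at 0.0687 (Parp6), 0.099 (Ndrg2) and 0.0986 (Rrm2b). Libraries of a table share a kit and a kind of sample, so the likeness describes these 8 libraries only.

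**Figure D4:**
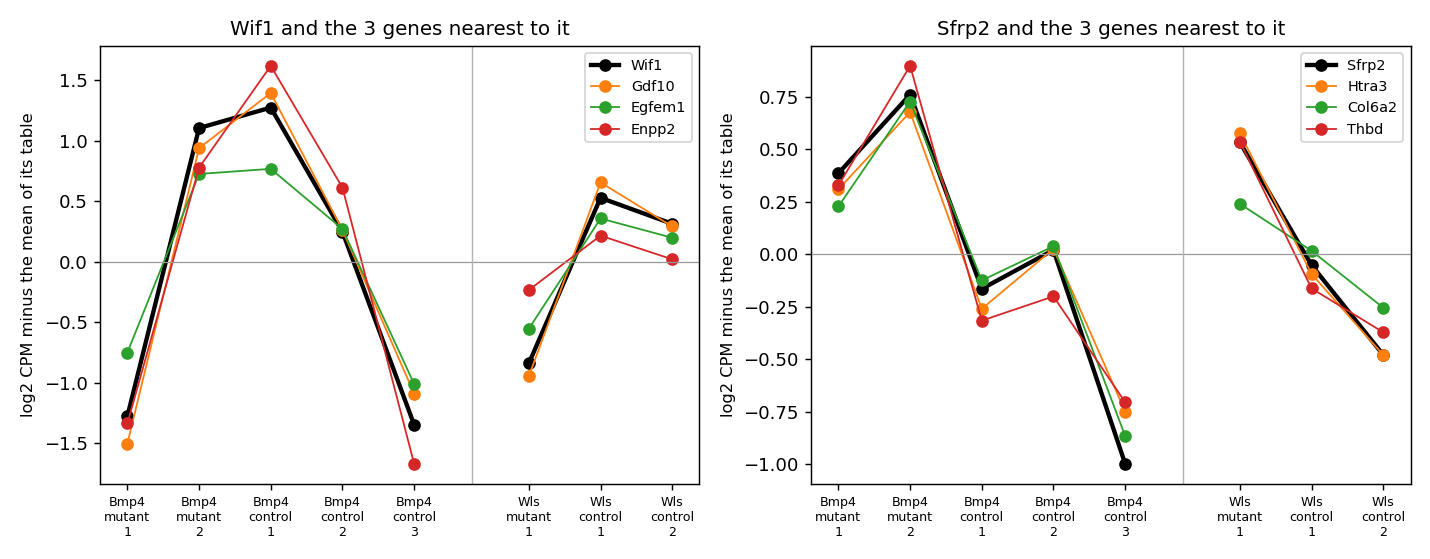
Log2 CPM minus the mean of its own table for Wif1 (left) and Sfrp2 (right) with the 3 genes of most similar pattern, over the 5 sorted-cell libraries and the 3 trachea libraries; lines join libraries of one table and mark no order. Gdf10 lies within 0.153 log2 units (root mean square) of Wif1 and Htra3 within 0.106 of Sfrp2.

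Other genes of the Wnt pathway give the setting of the inhibitors in the trachea. Of 13 genes known as read-outs of Wnt signalling through beta-catenin, 5 were lower and 2 higher in the Wls mutant by the edgeR test, with a median log2 fold change of -0.46 where that of all genes was -0.01. Axin2, a feedback inhibitor within the cell, stood at 23.6 CPM in the mutant against 35.7 to 45.6 CPM (log2 fold change -0.76 ± 0.19 (SE), adjusted p = 0.0046). Notum, a secreted enzyme that removes the lipid from Wnt proteins and so is itself an extracellular inhibitor, stood at 7.36 CPM against 24.2 to 25.4 CPM (-1.74 ± 0.23 (SE), adjusted p = 3.8e-10). The nuclear partners of beta-catenin Lef1 (-0.88) and Tcf7 (-0.85) and the growth regulator Myc (-0.79) fell as well, each with an adjusted p of at most 0.0043. Against that direction, the transcription factor gene Sp5 rose by 1.98 at 3.09 CPM in the mutant and at most 0.881 CPM in the controls (adjusted p = 0.0037), and the R-spondin receptor gene Lgr5 rose by 1.05 (adjusted p = 0.0013). Wif1 and Dkk3 thus fell in the same mutant library as these read-outs, and Sfrp1 and Sfrp2 rose in it.

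Of 14 Wnt ligand genes tested in the trachea, 3 rose and 1 fell. Wnt2 stood at 24 CPM in the Wls mutant against 8.55 and 10.9 CPM in the controls (log2 fold change 1.32, adjusted p = 7.2e-07). Wnt4 stood at 53.8 CPM against 25.4 to 27.1 CPM (1.05, adjusted p = 2.6e-06) and the epithelial ligand Wnt7b at 215 CPM against 126 to 139 CPM (0.71, adjusted p = 0.0028). Wnt5a, a ligand of the route without beta-catenin, fell to 71.1 CPM against 127 to 138 CPM (-0.88, adjusted p = 2e-04). The ligand list thus held changes in both directions, with a median of -0.23. Of 15 receptor genes 0 rose and 2 fell, with a median of -0.27. They were Fzd9 (-1.56, adjusted p = 0.00023) and the Wnt5a receptor gene Ror1 (-1.25, adjusted p = 6.4e-07). The Dkk targets Lrp5 (89.4 CPM against 107 to 112 CPM) and Lrp6 (146 CPM against 163 to 178 CPM) did not pass the test.

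Among 13 genes tested of the list of other extracellular inhibitors, Cer1 rose (1.90, adjusted p = 0.023, at 2.15 CPM in the mutant against 0.541 to 0.624 CPM) and Notum fell, with a median of -0.38. That list also holds genes that act on ligands other than Wnt proteins, Cer1 and Bambi among them. Of 7 genes for R-spondins, secreted proteins that enhance Wnt signalling, and their Lgr receptors, Rspo4 (-1.77, adjusted p = 3.8e-05) and Lgr6 (-1.90, adjusted p = 3.2e-08) fell and Lgr5 rose, with a median of -0.24.

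**Figure D5:**
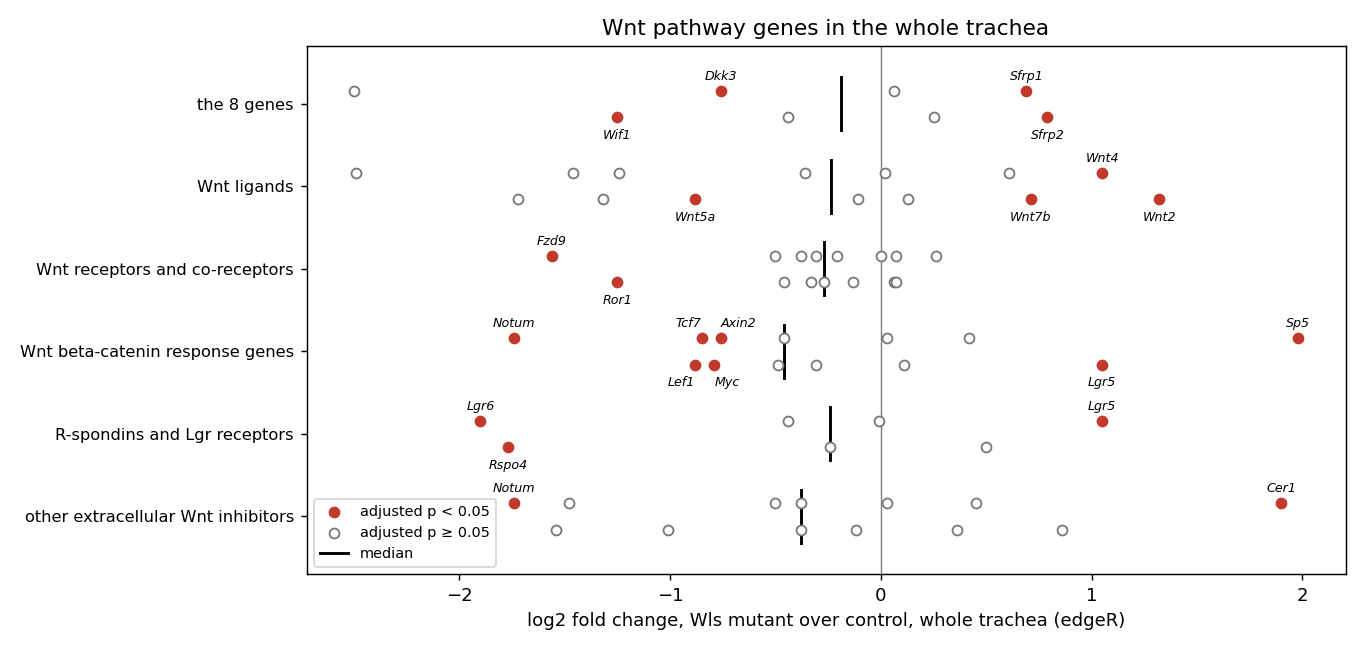
Log2 fold change (Wls mutant over control, whole trachea, edgeR) of the 8 genes and of 5 lists of other Wnt pathway genes, one point for each gene tested, filled where the adjusted p was under 0.05, with the median of each list as a bar; vertical offsets within a list only keep points apart. The 8 genes have a median of -0.19 with called genes on both sides of 0, while 5 of the 7 called beta-catenin response genes lie below 0.

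In the sorted cells many genes of these lists lay under the background limit, so each list is given over all its tested genes and over those above the limit. The limit was set on the mean over all sorted-cell libraries, most of them controls, so genes higher only in the mutants met it less easily. Of all 21665 genes tested, 8507 were higher and 3381 lower, with a median log2 fold change of 0.53, or -0.37 above the limit. Scaled from genes above the background, 9786 were higher and 858 lower. The counts and medians of each list below are to be read beside these values. Of the 13 response genes, Lef1 fell by 1.31 ± 0.25 on the log2 scale (SE; edgeR adjusted p = 0.0048), Ccnd1, a cell cycle gene, by 1.55 (adjusted p = 0.016) and Myc by 1.04 (adjusted p = 0.0033), and Nkd2, an intracellular inhibitor of Wnt signalling, rose by 0.98 (adjusted p = 0.037). The list had 2 higher and 3 lower with a median of -0.31, or -1.04 over the 7 genes above the limit, and the other higher gene, Lgr5, lay under it. Axin2, also under the limit, stood at 5.04 to 10.4 CPM in the Bmp4 mutants against 8.41 to 11.7 CPM in the controls and did not pass the test. Wnt5a stood at 82.7 and 200 CPM in the mutants against 191 to 516 CPM in the controls, a log2 fold change of -1.50 ± 0.50 (SE; edgeR adjusted p = 0.038), and was the only one of the 5 ligands above the background to be called. Scaled from genes above the background, Lef1, Ccnd1, Myc and Nkd2 stayed called in the same direction, but Wnt5a was not (-1.14, adjusted p = 0.072), whereas Wnt11 (0.70, adjusted p = 0.012) and Wnt9a (1.10, adjusted p = 0.046) were called higher. The ligands above the background thus had 0 higher and 1 lower in the main scaling and 2 higher and 0 lower in this one. All 11 ligand genes called higher lay under that limit, and 4 ligands were at 0 in every control, so the list's median of 2.69, also 2.69 with those 4 taken at 3 counts for each control library, is mostly over genes under that limit. The 5 ligands above it had a median of 0.33.

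Of the 15 receptors, Fzd2 fell by 0.81 (adjusted p = 0.013) and Lrp6, the Dkk target, by 0.46 (adjusted p = 0.032), and 3 were higher but under the limit, with a median of -0.46 over all 15 and -0.50 over the 8 above the limit. Of the 14 genes listed as other extracellular inhibitors, Bambi fell by 0.64 (adjusted p = 0.020), and the 4 called higher lay under the limit. Bambi is a membrane decoy receptor of BMP and TGF-beta signalling and not a secreted Wnt inhibitor. The median of this list was 1.25 over all 14 but -0.28, the opposite sign, over the 5 above the limit. Scaled from genes above the background, Fzd2 (-0.45, adjusted p = 0.077), Lrp6 (-0.10, adjusted p = 0.62) and Bambi (-0.28, adjusted p = 0.23) were no longer called, and the extracellular inhibitor gene Sostdc1 (1.69, adjusted p = 0.024) and the R-spondin receptor gene Lgr4 (0.65, adjusted p = 0.047) were called higher. Of the 7 R-spondin and Lgr genes 2 were higher, both under the limit, with a median of -0.02, or -0.07 over the 5 above it. Under either scaling Lef1, Myc and Ccnd1 were lower in the Bmp4 mutant cells, whereas Sfrp2 and Dkk2, the inhibitors that stood above all controls there, were called higher by edgeR only under the scaling from genes above the background.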

How the data were processed

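RNA-seq counts of 8 mouse libraries were used as the authors deposited them, 1 table of raw counts per gene for the sorted cells and 1 for the whole tracheas. Trizol RNA was amplified with SMART-Seq v4 (sorted cells) or Ovation RNA-Seq v2 (tracheas) before Nextera XT library preparation, per the labels' protocols, so the tables were fitted apart and not tested against each other. Bowtie2, Cufflinks, DESeq and mm10 appear in the submitters' processing notes, with Trim Galore for the sorted cells. Which program counted the reads, with which strand setting and annotation, is not given in the sources used here.

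CPM are counts over library totals. Fits used edgeR 4.0.16 in R 4.3.3 (TMM scaling, filterByExpr, quasi-likelihood F test, Benjamini-Hochberg adjustment over all genes tested, threshold 0.05), and every adjusted p comes from this test unless another tool is named. The sorted-cell fit had 3 residual degrees of freedom and the trachea fit 1. Each SE of an edgeR fit was derived as the absolute log2 fold change over the square root of the F statistic. The size rule used a prior count of 2. All 8 genes passed the filter on low counts in both tables. The edgeR fit was also run on simulated counts with the same spread for all genes and no background particular to the mutants. The sorted-cell data differ from that setting, so the run does not bear on their calls. Alternatives were DESeq2 1.42.0, limma-voom (limma 3.58.1), median-of-ratios size factors, no filter, left-out libraries and a replicate block. Further alternatives were a prior count of 0.5 and, added after the data were seen, a fit without 10 globin genes.

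Exon lengths came from the union of exons in GENCODE M21 (22114 of 23478 symbols matched), and promoter windows from RefSeq (5 of the 8 genes matched). The background per kilobase was measured over 4839 genes with at most 3 counts in the 3 sorted-cell controls. It was subtracted from each library over genes at 3 or more times its level, or those 9606 genes alone set the scaling. This limit set a gene's mean CPM over all sorted-cell libraries, most of them controls, against the mean background of the mutants. Genes higher in the mutants could thus fall under it, such as Kdr (46.9 CPM in the mutants with a background of 8.97 CPM). Counting intervals cover counting error only, since reads carry no molecular identifiers. Replicate pairs differed by 24.5 to 193 times counting noise by chi-square over its degrees of freedom, so each library counts as 1 sample.

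The 8 genes and all lists were chosen with earlier results of these data known. All 8 are named. From each list the text names at most the 4 called genes of largest absolute log2 fold change in a comparison, and some of the members above 20 CPM in the controls. Other members above 20 CPM, most of them not called, are left unnamed. For each gene of at least 5 CPM in both tables it also gives its nearest genes. Axin2 and the marker genes in the sorted cells, and genes called there only under the alternative scaling, were named after their values were seen.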

Additional observations from a re-analysis of the deposited data

How the results depend on the processing

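In the trachea, DESeq2 called 268 genes, against 676 by edgeR, and Dkk3 was no longer called. The calls of Sfrp1, Sfrp2 and Wif1 held under each alternative with a test, and the trachea fit could not be tested without a control, since that leaves 1 library against 1, or without its only mutant. For the sorted cells, edgeR called 11888 genes, 3595 to 10478 with 1 library left out and 255 with the background subtracted. Of the 8 genes, 0 were called, 1 by DESeq2, 2 with scaling from genes above the background and 0 to 1 with 1 library left out. Frzb reversed under limma-voom (0.26), with the background subtracted (0.29) and under that scaling (0.24), and ranged from -0.72 to 1.19 with 1 library left out. Wif1 reversed with the background subtracted (0.13) and under that scaling (0.01), and ranged from -1.88 to 0.44. Dkk3 was 0.04 with the background subtracted. With 1 library left out, Dkk1 ranged from -0.29 to 2.49 and Kremen1 from 0 to 1.08. The cause of these shifts was not tested. A prior count of 0.5 left Dkk1 (-2.39) and Wif1 (-1.26) past the size rule. Depth limits Dkk1 in both tables and, with the background, Kremen1 in the mutant cells.

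The labels number the sorted-cell libraries, but nothing says that a number marks a shared litter or day. Deviations from the group means correlated at -0.32 for mutant 1 with control 1 and -0.25 for mutant 2 with control 2. The 2 mutants deviate from their mean by equal amounts in opposite directions, so these values cannot decide whether the numbers pair the libraries. With the replicate number as a block, 4 genes and 0 of the 8 were called, and Frzb stood at 1.13. The trachea groups share too few numbers for a block.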
